A study of Oryctolagus cuniculus with 16 samples.

Results

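Vaginal wall beside a graft carrying tissue particles was compared with vaginal wall after sham surgery, across all genes. The PLATE group, which the labels describe as vagina with tissue particles, held 4 libraries (animals 1, 5, 9 and 13) and the sham group 3 (animals 11, 12 and 14). These 7 of the 16 libraries of the series were chosen by their treatment label alone. All animals were juvenile females of the New Zealand White rabbit strain, 17 to 19 weeks old, and no genotype or drug is named for any of them. PLATE tissue was taken 10 mm from the graft, so the libraries describe the host wall near the graft and not the graft itself. The sampling distance of the sham tissue and the time after surgery are not given in the sources used here. Site and graft therefore cannot be told apart. The other libraries, 6 from unoperated vagina (control) and 3 taken 10 mm from an acellular graft, serve below only to show the range of a gene in this tissue and to estimate its spread.

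In autologous micrografting, small pieces of an animal's own tissue are carried on a scaffold into a wound, where cells can grow out of them. The vaginal wall has an epithelium facing the lumen, a collagen-rich lamina propria with vessels, nerves and resident immune cells, and a layer of smooth muscle. Antigen-presenting cells show peptides to T helper cells on MHC class II molecules. Interferon gamma from T and natural killer cells induces class II genes through the transactivator CIITA, also in epithelial and endothelial cells. Neutrophils and macrophages enter a wound early, and fibroblasts then lay down and remodel matrix.

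Libraries held 23334203 to 30695000 counts, of which 16871203 to 22481735 were on named genes. In 7 measures of depth and composition, among them the mitochondrial share, PLATE and sham libraries overlapped (two-sided exact permutation p from 0.2286 to 0.8857, where the smallest possible is 0.0286). The labelled tissue carried its defining transcripts. Smooth muscle (ACTG2, DES), fibroblast (DCN, LUM) and epithelial (EPCAM, KRT8) markers were present in all 7 libraries. PLATE 1 stood apart. Its Spearman correlation with PLATE 5, 9 and 13 across genes was 0.858 to 0.881, whereas those 3 libraries correlated with each other at 0.976 to 0.984 and with sham at 0.960 to 0.981. ESR1, the oestrogen receptor, lay at 346 to 447 CPM (a rate of counts per library, over named genes and scaled between libraries) in the other PLATE libraries, at 396 to 436 CPM in sham and at 46.8 CPM in PLATE 1. PLATE 1 is therefore set apart in the results below.

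With all 16 libraries in 1 model, 0 of 10942 genes passed an adjusted p of 0.05 between PLATE and sham (0% of those tested, edgeR, smallest adjusted p = 0.6593). At an unadjusted p under 0.05 there were 813 genes, 635 higher and 178 lower in PLATE, where 547 would be expected. DESeq2 called 14 genes. Without PLATE 1 the model of 15 libraries also called 0 of 10910 genes (0%, smallest adjusted p = 0.9996), with 211 at an unadjusted p under 0.05 where 546 would be expected, and DESeq2 called 1. Both models take the spread of each gene from all 4 groups. When PLATE 5, 9 and 13 were set against sham alone, in a fit of those 6 libraries, 93 of 10550 genes passed. Of these, 87 rose in PLATE (0.825% of the genes tested) and 6 fell (0.0569%). The common biological coefficient of variation was 0.234 in that fit and 0.397 in the model of 15 libraries, which adds the control and acellular ones. With PLATE 1 added, the same fit of PLATE and sham alone called 0 of 10618 genes (0%, edgeR, smallest adjusted p = 0.4468), and 1057 had an unadjusted p under 0.05 where 531 would be expected. The 93 calls thus held only when PLATE 1 was left out. The count also leaned on other single animals. It was 0 without PLATE 13, 7 without sham 11, 11 without sham 12, 34 without sham 14, 55 without PLATE 9 and 56 without PLATE 5. In the following, "rose" and "fell" refer to these 93 genes and to this 6-library fit without PLATE 1. Because the sample is bulk tissue, fewer cells of a type and less RNA per cell cannot be told apart.

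PLATE 1 followed some of the genes that rose and not others. Among the 87, PLATE 1 lay above all 6 other libraries for 37 genes, such as HLA-DRA and EVI2B, and below all 6 for 25, such as KRT8 and MYO5B. It lay within the sham range for 11, between the groups for 12 and within the range of PLATE 5, 9 and 13 for 2. For all 6 genes that fell, PLATE 1 lay below every other library. The range of the 6 unoperated control libraries reached across both groups for 81 of the 87 and for 5 of the 6. That means it held at least 1 sham value and at least 1 value of PLATE 5, 9 or 13, with PLATE 1 not considered. The acellular range did so for 54 of the 87 and for 1 of the 6. Control 2 differed from the other controls. Its columnar epithelium mean was 0.243 log2 CPM, against 4.13 to 6.39 log2 CPM in the others. Its mitochondrial share was 26.0%, against 8.9 to 15.7% in the others. For epithelial genes it can therefore widen the control range. Of the 87, 23 belong to any of the 32 gene lists used here.

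**Figure D1:**
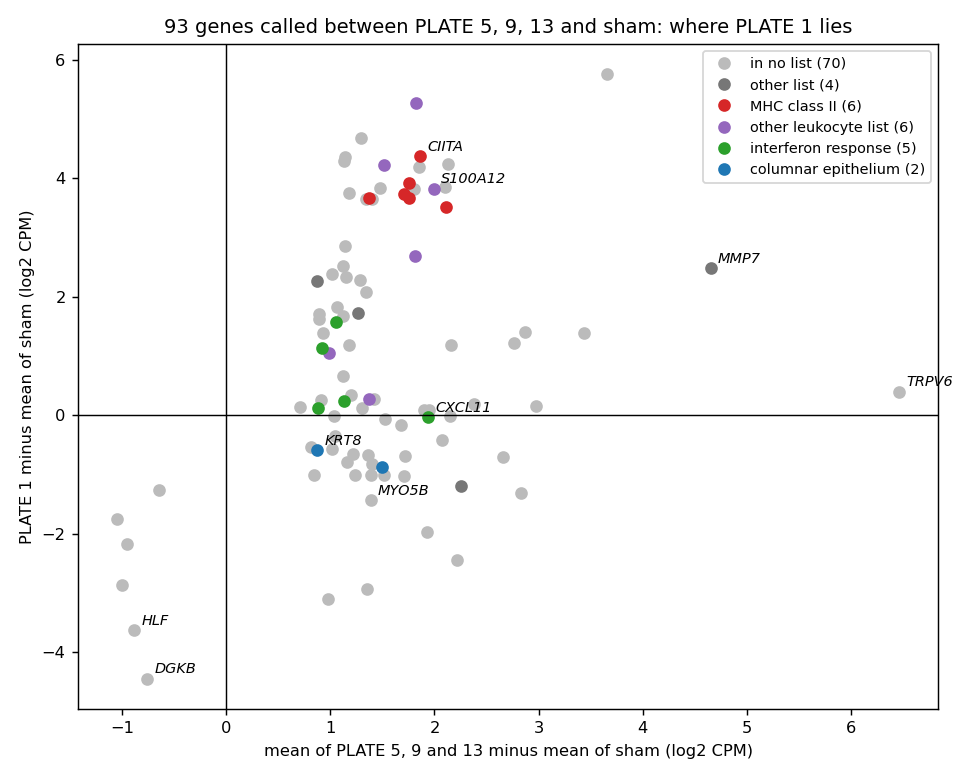
Each point is 1 of the 93 genes called between PLATE 5, 9 and 13 and sham in the 6-library fit. The horizontal axis is the difference of their group means and the vertical axis the difference of PLATE 1 from the sham mean, both in log2 CPM, and colours mark gene lists. MHC class II genes lie above 0 on both axes, whereas KRT8 and MYO5B lie above 0 on the horizontal and below 0 on the vertical axis.

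Genes of the MHC class II list were higher in PLATE with and without PLATE 1. The list also holds FLT3, which is not a class II gene. All 15 tested members were higher, at a median log2 fold change of 2.24 with PLATE 1 and 1.40 without it, where the median of all genes was 0.03 and 0.00. In 11 of the 15 every PLATE library lay above every sham library, both with and without PLATE 1. Among all genes tested this was so for 7.91% with PLATE 1 and 11.4% without. HLA-DRA, which encodes the DR alpha chain, was at 290.5, 364 and 309 CPM in sham 11, 12 and 14. It was at 799.9, 1168 and 1345 CPM in PLATE 5, 9 and 13 and at 4844 CPM in PLATE 1. The sham values were close together, and every PLATE library exceeded them. HLA-DRA rose by 1.77 ± 0.22 (log2 fold change ± SE, adjusted p = 0.0232). In the model of 16 libraries its log2 fold change was 2.67 ± 0.86 and did not pass (adjusted p = 0.6593), nor did it in the fit of PLATE and sham alone with PLATE 1 (adjusted p = 0.4468).

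CD74, the invariant chain that escorts class II molecules to the endosome, was at 303 to 366 CPM in sham, at 779, 1101 and 1379 CPM in PLATE 5, 9 and 13, and at 4306 CPM in PLATE 1. It rose by 1.73 ± 0.22. CIITA, the master transactivator of class II genes, was at 2.05, 1.96 and 1.89 CPM in sham, at 5.24, 7.38 and 10.6 CPM in PLATE 5, 9 and 13, and at 42.7 CPM in PLATE 1. It rose by 1.96 ± 0.32. The peptide-loading chaperone chains HLA-DMA and HLA-DMB and the beta chain HLA-DPB1 rose as well, so that 6 of the 15 were called, where 0.825% of all genes rose. PLATE libraries were again above all sham libraries for each of these. For HLA-DRA the range of the control libraries, 221 to 1800 CPM, and that of the acellular libraries, 282.5 to 1565 CPM, covered sham and PLATE 5, 9 and 13. PLATE 1 lay above both ranges.

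Genes of lymphocytes were mostly higher in PLATE, and few passed. Of 24 B and plasma cell genes 23 were higher with PLATE 1 (median 2.96) and 21 of 23 without it (median 1.33), and 15 did not overlap between the groups in either case, against 7.91% of all genes with PLATE 1 and 11.4% without. IRF4, a transcription factor of plasma cells and activated lymphocytes, was at 2.31 to 3.35 CPM in sham, at 9.13, 6.59 and 9.25 CPM in PLATE 5, 9 and 13, and at 54.5 CPM in PLATE 1. It was the 1 of the 21 members in the 6-library fit that rose, against 0.825% of all genes, and it rose by 1.54 ± 0.27. IGHM, the immunoglobulin mu chain, was at 697 to 1330 CPM in sham and at 1353 to 3557 CPM in PLATE 5, 9 and 13, with 31230 CPM in PLATE 1. MS4A1, the B cell antigen CD20, was at 0.0824 to 1.26 CPM in sham, 1.78 to 5.46 CPM in those 3 libraries and 64.6 CPM in PLATE 1. The mean level of the B and plasma cell list was 1.289 to 1.821 log2 CPM in sham and 2.317 to 3.297 log2 CPM in PLATE 5, 9 and 13. The control range, 0.757 to 4.021 log2 CPM, covered both.

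Of 34 T and NK cell genes 32 were higher with PLATE 1 (median 1.39) and 31 of 33 without it (median 0.96). The groups did not overlap for 12 in both cases, against the same 7.91% and 11.4% of all genes. In the 6-library fit 2 of 32 rose, against 0.825% of all genes. The mean level of the list was 0.923 to 1.047 log2 CPM in sham and 1.265 to 2.311 log2 CPM in PLATE 5, 9 and 13. The control range, -0.812 to 2.412 log2 CPM, covered both. ZAP70, the kinase next to the T cell receptor, was at 6.94, 6.27 and 6.67 CPM in sham and at 12.4, 13.2 and 14.2 CPM in PLATE 5, 9 and 13. PLATE 1, at 13.9 CPM, lay among them, and ZAP70 rose by 0.99 ± 0.17. CXCR6, a chemokine receptor of tissue-resident T cells, was at 10.7 to 12.0 CPM in sham, at 52.4, 23.9 and 54.5 CPM in PLATE 5, 9 and 13, and at 74.6 CPM in PLATE 1. It rose by 1.91 ± 0.30. CCR7, which guides lymphocytes and dendritic cells to lymph nodes, had the smallest p in the model of 16 libraries among higher genes with separate groups. It was at 0.575 to 1.118 CPM in sham, at 2.25 to 5.22 CPM in PLATE 5, 9 and 13 and at 29.4 CPM in PLATE 1, with a log2 fold change of 3.46 ± 0.83 (adjusted p = 0.6593) and 2.04 ± 0.55 without PLATE 1. The unoperated controls, at 1.81 to 4.70 CPM, also lay above every sham library for CCR7.

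**Figure D2:**
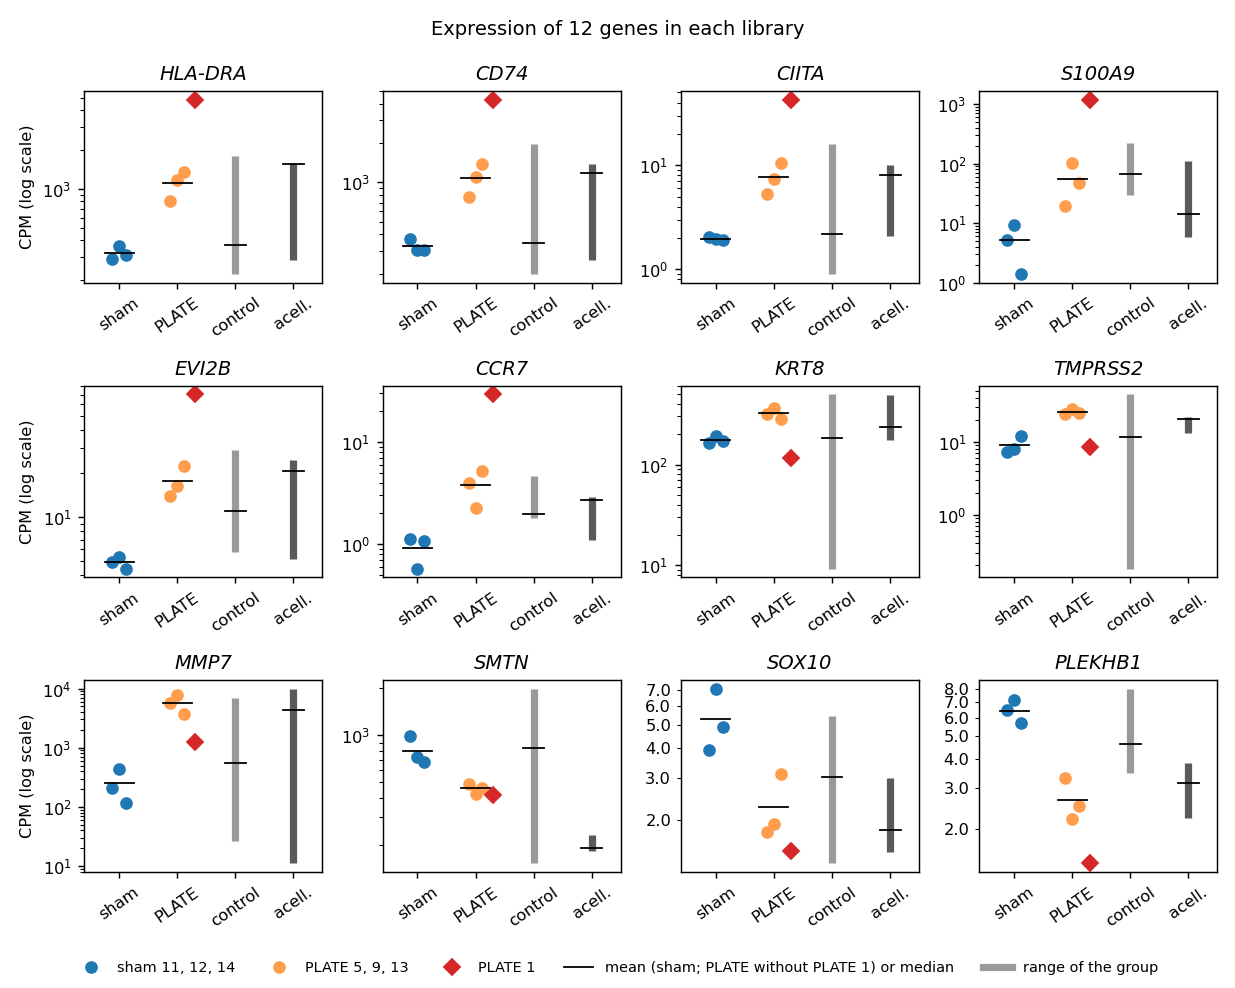
CPM of 12 genes on log axes, with 1 point per sham (blue), PLATE (orange) and PLATE 1 (red diamond) library and black lines at the means of sham and of PLATE 5, 9 and 13. Grey bars span the 6 control and 3 acellular libraries, with their medians. HLA-DRA, CD74, CIITA and EVI2B are highest in PLATE 1, whereas KRT8, TMPRSS2 and MMP7 are higher in PLATE 5, 9 and 13 than in PLATE 1.

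Of 25 neutrophil and interleukin 1 genes 24 were higher with PLATE 1 (median 2.92), and 22 of 24 without it (median 1.45). S100A9, a calcium-binding protein abundant in neutrophils, was at 5.22, 9.24 and 1.40 CPM in sham, at 19.5, 101.3 and 48.0 CPM in PLATE 5, 9 and 13, and at 1191 CPM in PLATE 1. Its log2 fold change was 6.01 ± 1.63 with PLATE 1 and 3.42 ± 1.14 without. IL1B, the cytokine interleukin 1 beta, was at 0.659 to 2.202 CPM in sham, 4.45 to 11.3 CPM in PLATE 5, 9 and 13 and 1894 CPM in PLATE 1. Its log2 fold change was 8.23 ± 2.198 with PLATE 1 and 2.45 ± 0.89 without. CSF3R, the receptor of granulocyte colony-stimulating factor, was at 0.371 to 1.245 CPM in sham, 1.79 to 25.8 CPM in those 3 libraries and 332 CPM in PLATE 1. In these 3 genes PLATE 1 lay above every other library of the series. The unoperated controls lay above every sham library as well, at 29.45 to 218 CPM for S100A9 and 10.1 to 106.3 CPM for IL1B. The mean level of the list was 3.14 to 4.57 log2 CPM in control, 1.48 to 2.60 log2 CPM in sham and 2.96 to 3.79 log2 CPM in PLATE 5, 9 and 13. Sham was thus low beside the controls, whereas PLATE 5, 9 and 13 overlapped them.

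Of the 22 members in the 6-library fit 3 rose, S100A12 and LCN2 among them, against 0.825% of all genes. S100A12, another neutrophil S100 protein, was at 77.3, 79.2 and 47.5 CPM in sham and at 235, 311 and 253 CPM in PLATE 5, 9 and 13, with 942.5 CPM in PLATE 1. LCN2, an iron-sequestering protein of neutrophils and epithelium, took another course. It was at 18.5 to 27.7 CPM in sham, at 51.4 to 70.6 CPM in PLATE 5, 9 and 13 and at 11.6 CPM in PLATE 1.

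Macrophage genes were higher in 31 of 32 with PLATE 1 (median 1.57) and in 30 of 32 without it (median 0.57), and 0 were called in the 6-library fit. CD68, a lysosomal protein of macrophages, was at 23.0 to 36.9 CPM in sham, 35.5 to 81.7 CPM in PLATE 5, 9 and 13 and 358 CPM in PLATE 1. MRC1, the mannose receptor CD206, overlapped between sham (35.04 to 60.4 CPM) and PLATE 5, 9 and 13 (28.5 to 82.7 CPM), and PLATE 1 was at 256 CPM. CSF1R, the receptor of macrophage growth factor, overlapped too, at 42.7 to 58.8 CPM in sham and 42.1 to 109.4 CPM in those libraries, with 378 CPM in PLATE 1. C1QC, a chain of complement C1q, did not overlap, at 15.7 to 24.2 against 36.1 to 65.7 CPM, and was at 106.8 CPM in PLATE 1.

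Interferon-response genes were divided. Of 35, 23 were higher with PLATE 1 (median 0.30) and 26 without it (median 0.42), and 5 of the 35 rose, against 0.825% of all genes. CXCL11, an interferon-induced chemokine for T cells, was at 11.0, 9.10 and 11.1 CPM in sham, at 46.9, 29.1 and 47.1 CPM in PLATE 5, 9 and 13, and at 10.2 CPM in PLATE 1. It rose by 1.97 ± 0.21. TAP1 and TAP2 form the transporter that carries peptides to MHC class I. TAP1 was at 87.3 to 123 CPM in sham and at 196 to 215.5 CPM in PLATE 5, 9 and 13, and TAP2 at 37.0 to 45.7 CPM against 68.6 to 81.3 CPM. PLATE 1 was above all of these for TAP1, at 291 CPM, and within the sham range for TAP2, at 44.1 CPM. GBP1, a guanylate-binding protein, and WARS1, a tRNA synthetase induced by interferon gamma, were the other members that rose, with 197 and 463 CPM in PLATE 1. ISG15, an interferon-induced ubiquitin-like protein, was at 15.1 to 45.7 CPM in sham, at 15.8 to 31.6 CPM in PLATE 5, 9 and 13 and at 17.3 CPM in PLATE 1. ISG15 was not called, and its groups overlapped.

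**Figure D3:**
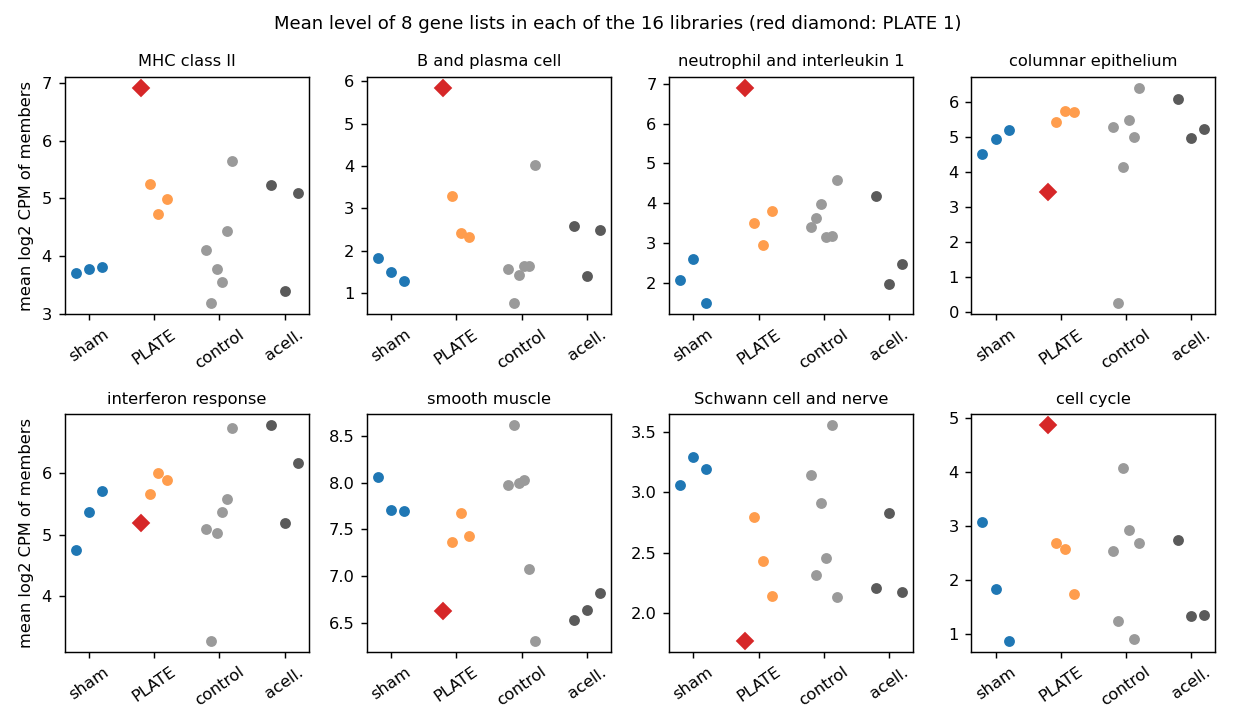
Mean log2 CPM of the tested members of 8 gene lists in each of the 16 libraries, 1 point per library, with PLATE 1 as a red diamond. In MHC class II and B and plasma cell genes all 4 PLATE libraries lie above all sham libraries, and in columnar epithelium PLATE 1 (3.41) lies below every sham library (4.50 to 5.19) while the other PLATE libraries lie above.

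The mean level of columnar epithelium genes separated PLATE 5, 9 and 13 from both sham and PLATE 1. That of stratified epithelium genes did not. It was 2.10 to 3.23 log2 CPM in sham, 2.63 to 3.13 log2 CPM in PLATE 5, 9 and 13 and 2.87 log2 CPM in PLATE 1. Of 30 columnar epithelium genes 29 were higher without PLATE 1 (median 0.73), and the groups did not overlap for 19, against 11.4% of all genes. With PLATE 1 27 were higher (median 0.44) and 1 did not overlap (3.33%), below the 7.91% of all genes. KRT8, a keratin of simple epithelium, was at 164, 191 and 171 CPM in sham, at 317, 368 and 285 CPM in PLATE 5, 9 and 13, and at 117 CPM in PLATE 1. It rose by 0.87 ± 0.14. EPCAM, an epithelial adhesion molecule, was at 70.6 to 117 CPM in sham, 126 to 172 CPM in PLATE 5, 9 and 13 and 33.4 CPM in PLATE 1, and was not called. CDH1, the epithelial cadherin, overlapped, at 56.4 to 99.3 CPM in sham and 90.5 to 151 CPM in those libraries, with 13.7 CPM in PLATE 1. Of the 30 genes 2 rose, KRT8 and LCN2, against 0.825% of all genes.

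A further 5 genes outside the list were picked from the 93 calls after their values were seen. MYO5B, a motor of apical membrane recycling, was at 22.9 to 28.7 CPM in sham, at 64.7 to 71.8 CPM in PLATE 5, 9 and 13 and at 9.51 CPM in PLATE 1. TMPRSS2, a membrane serine protease, was at 7.17 to 12.2 CPM, 24.2 to 27.8 CPM and 8.41 CPM in the same order. POU2F3, the transcription factor of tuft cells, was at 2.31 to 3.59 CPM in sham, at 11.5 to 16.4 CPM in PLATE 5, 9 and 13 and at 3.11 CPM in PLATE 1. TRPV6, an epithelial calcium channel, had 0, 2 and 0 counts in sham, 169, 281 and 240 counts in PLATE 5, 9 and 13, and 1 count in PLATE 1. CFB, complement factor B, was at 32.6 to 35.6 CPM in sham, 105.5 to 156 CPM in those 3 libraries and 36.5 CPM in PLATE 1. All 5 were taken from the genes that rose, and in none of them did PLATE 1 reach the other PLATE libraries. Because of how they were picked, they do not stand for the 87 genes that rose. Among those 87, PLATE 1 lay above all 6 other libraries for 37 and below all 6 for 25. The control libraries also varied widely in these genes, from 0.45 to 141 CPM for MYO5B.

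MMP7, the epithelial metalloproteinase matrilysin, had the largest log2 fold change among the list members that rose. It was at 208, 443 and 115.6 CPM in sham, at 5798, 7927 and 3674 CPM in PLATE 5, 9 and 13, and at 1234 CPM in PLATE 1. It rose by 4.49 ± 0.58, and its log2 fold change was 4.19 ± 1.93 in the model of 16 libraries. Control libraries ran from 26.7 to 6823 CPM and acellular libraries from 11.1 to 9838 CPM, so both PLATE and sham values occurred in other groups.

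Smooth muscle genes were mostly lower in PLATE. Of 39, 34 were lower with PLATE 1 (median -0.55) and 33 without it (median -0.42). Every PLATE library lay below every sham library for 15 with PLATE 1, against 6.95% of all genes, and for 16 without it, against 9.29%. In the 6-library fit 0 members were called. The mean level of the list was 7.70 to 8.06 log2 CPM in sham and 7.36 to 7.67 log2 CPM in PLATE 5, 9 and 13. The control range, 6.31 to 8.61 log2 CPM, covered both, and the acellular libraries were lower, at 6.53 to 6.82 log2 CPM. SMTN, the contractile protein smoothelin, was at 989, 727 and 671 CPM in sham, at 491, 424 and 461 CPM in PLATE 5, 9 and 13, and at 412 CPM in PLATE 1. Its log2 fold change was -0.83 ± 0.60 with PLATE 1 and -0.79 ± 0.67 without. MCAM, which mediates adhesion in vascular and smooth muscle cells, was at 227 to 312 CPM in sham, 144 to 171.5 CPM in PLATE 5, 9 and 13 and 134 CPM in PLATE 1. The main contractile genes overlapped. ACTG2, the visceral smooth muscle actin, ran from 5714 to 13090 CPM in sham and from 3552 to 12310 CPM in PLATE. DES, the intermediate filament desmin, ran from 4220 to 6077 CPM in sham and from 3386 to 5814 CPM in PLATE.

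Schwann cell and nerve genes were lower in 19 of 24 with PLATE 1 (median -0.87) and in 20 without it (median -0.78). The groups did not overlap for 7 and 9, against 6.95% and 9.29% of all genes. The mean level of the list was 3.061 to 3.295 log2 CPM in sham and 2.14 to 2.797 log2 CPM in PLATE 5, 9 and 13. The control range, 2.13 to 3.554 log2 CPM, covered both, and the acellular libraries were at 2.174 to 2.827 log2 CPM. SOX10, the transcription factor of Schwann cells, was at 3.91, 7.04 and 4.90 CPM in sham, at 1.79, 1.935 and 3.10 CPM in PLATE 5, 9 and 13, and at 1.49 CPM in PLATE 1. Its log2 fold change was -1.34 ± 0.46 with PLATE 1 and -1.21 ± 0.495 without. LGI4, a Schwann cell signal for myelination, was at 9.36 to 14.2 CPM in sham and 3.87 to 7.33 CPM in PLATE. Neither gene was called, and for both the 4 PLATE libraries lay below the 3 sham libraries. LGI4 was among the genes chosen for such a separation.

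PLEKHB1, a membrane-associated protein, had the smallest p among lower genes with separate groups in both models. It was at 6.47, 7.13 and 5.68 CPM in sham, at 3.32, 2.197 and 2.51 CPM in PLATE 5, 9 and 13 and at 1.42 CPM in PLATE 1. Its log2 fold change was -1.44 ± 0.36 with PLATE 1 and -1.26 ± 0.35 without. GPAT3, an enzyme of triglyceride synthesis, was at 53.3 to 80.5 CPM in sham and 28.7 to 41.8 CPM in PLATE. The 6 genes that fell were HLF, DGKB, SLC8A1, PDZRN4, PPM1K and KIAA0408. SLC8A1, the sodium-calcium exchanger of muscle, was at 119 to 179 CPM in sham, 68.1 to 78.0 CPM in PLATE 5, 9 and 13 and 31.7 CPM in PLATE 1. DGKB, a diacylglycerol kinase, was at 41.2 to 42.1 CPM in sham, 23.7 to 25.9 CPM in those libraries and 1.81 CPM in PLATE 1.

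Other genes of the smallest p with separate groups came from several functions. IDO1, an interferon-induced enzyme that degrades tryptophan, was at 2.42, 6.94 and 5.72 CPM in sham, at 16.1, 48.8 and 30.2 CPM in PLATE 5, 9 and 13 and at 1081 CPM in PLATE 1. EVI2B, a membrane protein of leukocytes, was at 4.41 to 5.32 CPM in sham, 14.0 to 22.3 CPM in those libraries and 70.2 CPM in PLATE 1, and it rose by 1.84 ± 0.22. For IDO1 (13.5 to 87 CPM) and EVI2B (5.76 to 29.1 CPM) every unoperated control lay above every sham library. Sham was thus low beside the controls in both, whereas PLATE 5, 9 and 13 lay within the control range. TUSC3, a subunit of the oligosaccharyltransferase, was at 11.3 to 16.6 CPM in sham, 23.7 to 32.7 CPM in PLATE 5, 9 and 13 and 48.1 CPM in PLATE 1. PFKFB3, an enzyme that drives glycolysis, rose by 1.29 ± 0.21, from 36.1 to 43.5 CPM in sham to 69.9, 128 and 100.4 CPM in PLATE 5, 9 and 13, with 133.7 CPM in PLATE 1. Among lower genes, VIT, the matrix protein vitrin, was at 12.6 to 27.3 CPM in sham and 4.27 to 6.42 CPM in the 4 PLATE libraries. For each of these genes PLATE 1 lay on the same side of sham as the other PLATE libraries. This is no result for genes chosen because all 4 PLATE libraries were separate from sham, since the choice required it.

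**Figure D4:**
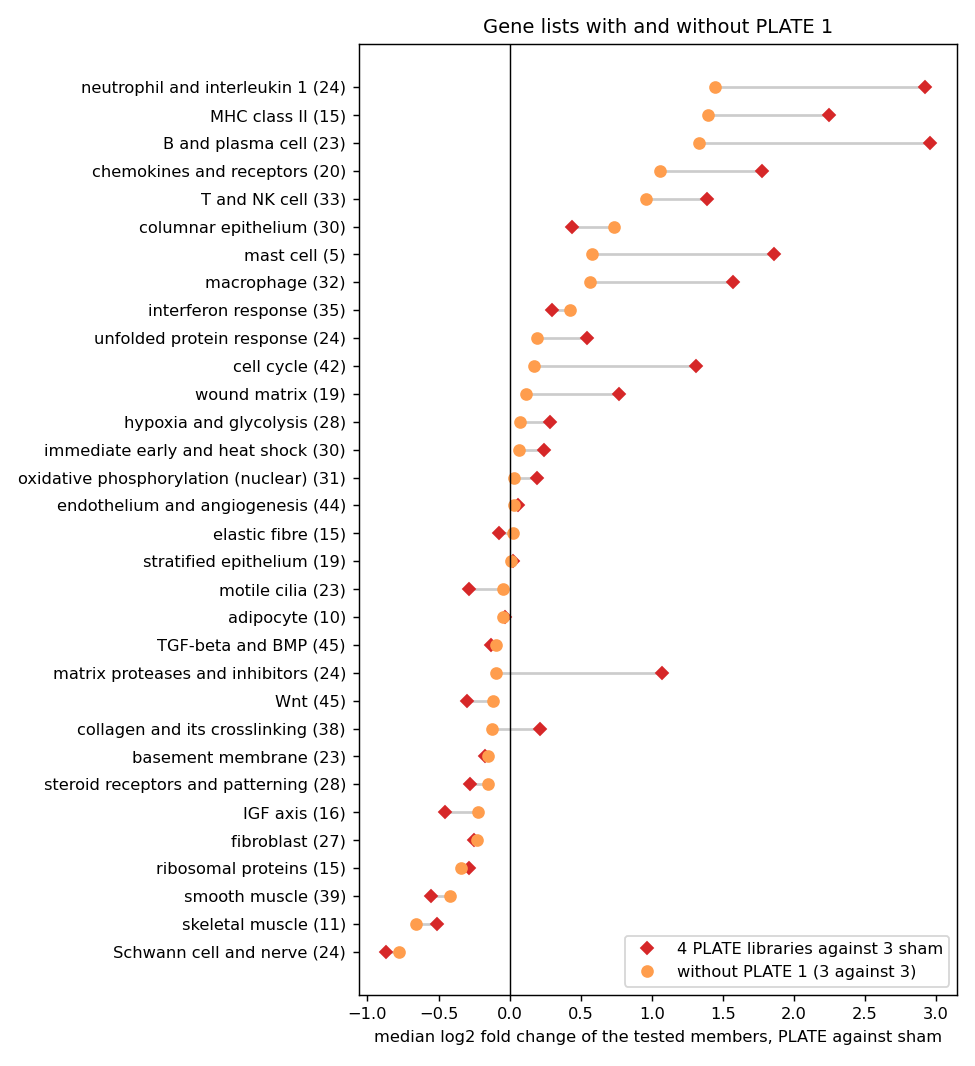
Median log2 fold change of PLATE against sham over the tested members of 32 gene lists (number in brackets), with all 4 PLATE libraries (red diamonds) and without PLATE 1 (orange circles). Leukocyte lists lie above 0 in both, and the lists of matrix proteases (1.07 and -0.10) and of collagen (0.21 and -0.13) change sign when PLATE 1 is left out.

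The medians of the collagen, wound matrix and protease lists were lower without PLATE 1 than with it. Of 38 collagen and crosslinking genes 27 were higher with PLATE 1 (median 0.21) and 14 without it (median -0.13). COL1A1, the alpha 1 chain of type I collagen, was at 6570, 1672 and 1289 CPM in sham and at 2697, 3290 and 3883 CPM in PLATE 5, 9 and 13, with 4717 CPM in PLATE 1. Sham 11 thus exceeded every PLATE library, and the other sham libraries lay below them. COL3A1, the chain of type III collagen, had the same order, with sham 11 at 20730 CPM, the other sham libraries at 5375 and 7331 CPM and PLATE at 8680 to 19330 CPM. COL1A2, the alpha 2 chain of type I collagen, was at 15580 CPM in sham 11 and at 15840 CPM in PLATE 1. LUM, the proteoglycan lumican, was at 3094 to 4004 CPM in sham, 1660 to 3149 CPM in PLATE 5, 9 and 13 and 5022 CPM in PLATE 1.

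Wound matrix genes were higher in 18 of 19 with PLATE 1 (median 0.77) and in 13 without it (median 0.11). POSTN, the matricellular protein periostin, was at 48.0 to 212 CPM in sham, 16.1 to 105.9 CPM in PLATE 5, 9 and 13 and 332 CPM in PLATE 1. Among 24 matrix proteases and inhibitors 19 were higher with PLATE 1 (median 1.07) and 9 without it (median -0.10). MMP1, the interstitial collagenase, was at 0, 77.2 and 0.0824 CPM in sham, at 0.611, 1.83 and 5.36 CPM in PLATE 5, 9 and 13 and at 1955 CPM in PLATE 1. Sham 12 was thus the highest of the 6, and MMP9, a gelatinase, had the same outlying sham library (67.8 CPM against 0.373 and 0.124 CPM), with 647 CPM in PLATE 1. MMP2, the other gelatinase, overlapped, at 811 to 1422 CPM in sham and 739 to 1331 CPM in PLATE. TIMP1, a protease inhibitor, was at 121 to 174.5 CPM in sham, 133 to 163 CPM in PLATE 5, 9 and 13 and 1381 CPM in PLATE 1.

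Cell cycle genes were all higher with PLATE 1 (42 of 42, median 1.31), and 32 were higher without it (median 0.17). TOP2A, a topoisomerase of dividing cells, was at 40.1, 11.9 and 6.34 CPM in sham, 27.6, 12.1 and 26.6 CPM in PLATE 5, 9 and 13 and 102.8 CPM in PLATE 1. All 15 ribosomal protein genes tested were lower, at a median of -0.29 with PLATE 1 and -0.34 without. The 44 endothelial genes had medians of 0.06 with PLATE 1 and 0.03 without. CDH5, the endothelial cadherin, was at 46.9 to 74.8 CPM in sham and 40.3 to 58.1 CPM in PLATE. Unfolded protein response genes were higher in 21 of 24 in both fits (median 0.54 and 0.19). CREB3L1, a transcription factor of secretory cells, was the 1 of the 24 that rose, against 0.825% of all genes (101.4 CPM in PLATE 1). HSPA5, the chaperone BiP, was at 303.5 to 358 CPM in sham, 372 to 570 CPM in PLATE 5, 9 and 13 and 1486 CPM in PLATE 1. Chemokines and their receptors were higher in 17 of 20 in both fits (median 1.78 and 1.06). Of 27 fibroblast genes 20 were lower with PLATE 1 and 18 without it (median -0.25 and -0.23). DCN, the proteoglycan decorin, was at 6919 to 10810 CPM in sham and 4513 to 7050 CPM in PLATE. Stratified epithelium, adipocyte and elastic fibre lists had medians between -0.07 and 0.03 in both fits. PGR, the progesterone receptor, overlapped, at 105.5 to 173.9 CPM in PLATE 5, 9 and 13 and 142 to 172 CPM in sham, and was at 37.2 CPM in PLATE 1. HSD11B2, which inactivates glucocorticoids, was the 1 of 27 members of the steroid list that rose, against 0.825% of all genes. It was at most at 16.9 CPM in sham and at least at 48.1 CPM in PLATE 5, 9 and 13. In PLATE 1 it was at 5.89 CPM, below every sham library.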

How the data were processed

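Per the labels' protocols, poly(A) RNA of frozen vaginal tissue was made into stranded libraries and sequenced by the authors. The submitters' processing notes name FastQC, HISAT2 2.2.1 and featureCounts. The genome build, annotation and strand setting are not given in the sources used here. The authors deposited raw counts of reads, summed by symbol, for 13001 named genes. The line that pools genes without a symbol (24.5 to 27.7% of a PLATE or sham library) was left out.

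EdgeR 4.0.16 was used for quasi-likelihood tests of the counts (R 4.3.3; trimmed mean of M values, filterByExpr, robust), with a mean per group over all 16 libraries, and again without PLATE 1. Benjamini-Hochberg adjustment covered every gene tested, and genes under an adjusted p of 0.05 were called. The script was tested on simulated data. CPM used effective library sizes, and log2 CPM a prior count of 2. The fit of 6 libraries (PLATE 5, 9, 13 and sham) was planned as an alternative. It was taken up as a result of its own after its calls were seen. Other alternatives were DESeq2 1.42.0 size factors and test, limma 3.58.1 voom with quality weights, no low-count filter and each library left out.

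Members, 32 gene lists and named genes were chosen with earlier results of these data known. Lists held 1261 distinct genes (841 entries tested) and are described by counts and medians, without a test. By the naming rule, genes were those called, those with the smallest p among genes with separate groups, key list members whatever their values, and up to 3 members of each list with the smallest p. The text describes a part of these, chosen with their values in view, and further genes of the closing section were picked after their values were seen. Values of several genes are left out of this text. P-values measure the spread between animals. The number 9 labels a control and a PLATE animal, which were treated as independent.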

Additional observations from a re-analysis of the deposited data

Results flagged for a closer look

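In the PLATE group, 141 measures (list means, levels of the genes examined and library measures) were searched for a library far from the other 3, by Dixon's test at its 95% level. Chance flags about 1 in 20 such groups when the measures are chosen without sight of their values, and 17 were found. The genes examined were chosen with their values in view and the lists with earlier results known. That rate therefore does not hold here, and the 17 cannot be set against it. PLATE 1 was the library apart in 15, highest in 7 and lowest in 8. The measures are not independent, since most of them come from the same library.

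PLATE 1 was highest in the mean level of wound matrix genes (7.76 log2 CPM) and of unfolded protein response genes (7.41 log2 CPM). It was highest in IRF4 (54.5 CPM), IL1B (1894 CPM), TIMP1 (1381 CPM), PECAM1 (an endothelial and leukocyte adhesion molecule, 685 CPM) and HK2 (a hexokinase, 113.3 CPM). It was lowest in the mean level of columnar epithelium genes (3.41 log2 CPM). It was also lowest in TRPV6 (0.0647 CPM), MYO5B (9.51 CPM), TMPRSS2 (8.41 CPM), HLF (12.6 CPM), DGKB (1.81 CPM), SLC8A1 (31.7 CPM) and ESR1 (46.8 CPM). PLATE 5 was lowest in the mean level of ribosomal protein genes (9.83 log2 CPM) and in MMP2 (739 CPM).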

How the results depend on the processing

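No paired analysis was possible because the PLATE and sham animals share no number. Between PLATE and sham DESeq2 called 14 genes with PLATE 1 and 1 without it, where edgeR called 0. The 14 included CSF3R, S100A9, CCR7, EVI2B and PLEKHB1, which are described above. Their call in the model of 16 libraries thus depended on the tool. The 1 gene without PLATE 1 was TMPRSS11D, with 0 counts in sham. The 93 calls of the 6-library fit became 562 with the DESeq2 test, and 0 to 56 when 1 of the 6 libraries was left out. These 6-library alternatives were chosen after seeing the data. The cause was not tested.

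Some log2 fold changes turned sign. Voom put MRC1 at -0.153, POSTN at -1.12 and CDH5 at 0.034 with PLATE 1, and MRC1 at -0.230, COL3A1 at 0.297, MMP1 at 0.086 and CDH5 at 0.046 without it. Leaving out 1 library in turn, in the fit with PLATE 1, gave 0.052 to 1.43 for MRC1, -0.060 to 0.651 for CDH1, -0.364 to 0.300 for ACTG2, -0.178 to 1.29 for COL1A1, -0.123 to 1.01 for COL3A1, -0.125 to 1.28 for BMP1 and -1.21 to 0.725 for POSTN. It also gave -3.31 to 13.27 for MMP1, -2.08 to 9.37 for MMP9, -0.022 to 1.89 for TIMP1, -0.537 to 0.012 for LUM and -0.276 to 0.078 for CDH5. In the fit without PLATE 1 it gave -0.615 to 0.317 for MRC1, -1.11 to 0.031 for ACTG2, -0.325 to 1.13 for COL1A1, -0.181 to 0.965 for COL1A2, -0.384 to 0.741 for COL3A1, -0.343 to 0.023 for BMP1, -0.029 to 0.621 for SPARC and -4.40 to 5.73 for MMP1. It also gave -4.33 to 4.42 for MMP9, -0.162 to 0.069 for TIMP1, -0.115 to 0.074 for ESR1, -0.725 to 0.053 for ISG15, -0.054 to 0.384 for MMP2, -0.176 to 0.174 for CDH5 and -0.232 to 1.26 for TOP2A. Of the other gene values, 2530 kept direction and side of the threshold, 31 passed it in the fit of PLATE and sham alone and 8 with DESeq2. Of the list medians, counted for each list and edgeR alternative, 642 moved by less than the spread between replicates and 30 by more. That spread was the standard deviation of the list mean over the PLATE libraries, with PLATE 1 among them in the fit that holds it. A distant PLATE 1 widens that spread, so these counts cannot show that the medians hold without PLATE 1. The protease median went from 1.07 to -0.10 when PLATE 1 was left out. With 3 libraries a group, small differences were not detectable.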

Other observations

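HLF and TEF, transcription factors that follow the circadian clock, were among the lower genes with the smallest p, and the other clock genes were looked up after these values were seen. Of 14 clock genes, HLF alone fell in the 6-library fit, where 0.0569% of all genes fell. HLF and TEF prompted the look-up, so the call of HLF cannot be set against that share. None of the clock genes looked up afterwards fell. HLF was at 152 to 163 CPM in sham, 76.7 to 92.8 CPM in PLATE 5, 9 and 13 and 12.6 CPM in PLATE 1. TEF was at 46.0 to 66.0 CPM in sham, 23.6 to 32.4 CPM in those 3 libraries and 9.31 CPM in PLATE 1. PER1, a repressor of the clock, was at 59.6 to 66.7 CPM in sham and 16.5 to 44.2 CPM in the 4 PLATE libraries, and PER2 was at 7.40 to 11.9 CPM against 2.52 to 6.59 CPM. NR1D2, the repressor REV-ERB beta, was at 300.0 to 362 CPM in sham and 41.9 to 256 CPM in PLATE. ARNTL, the activator BMAL1, lay the other way, at 3.45 to 4.82 CPM in sham and 5.90 to 17.4 CPM in PLATE. NPAS2, a relative of CLOCK, was at 6.15 to 10.7 CPM in sham and 12.7 to 36.5 CPM in PLATE. CLOCK, the partner of BMAL1, was at 41.7 to 47.0 CPM in sham and 16.9 to 38.8 CPM in PLATE. CIART, a repressor, was at 13.0 to 30.2 CPM in sham, 9.57 to 11.5 CPM in PLATE 5, 9 and 13 and 27.5 CPM in PLATE 1. NR1D1, CRY1, CRY2, RORA and NFIL3 had overlapping groups. Among all genes the 4 PLATE libraries lay below all sham libraries for 6.95% and above them for 7.91%. The control range took in sham and PLATE 5, 9 and 13 for HLF (37.4 to 230.6 CPM), ARNTL, NPAS2 and CLOCK. For PER1 it took in sham but not PLATE 9. For TEF, PER2 and NR1D2 every sham library lay above the control range. A shift of the clock was not tested. The time of day at which tissue was taken is not given in the sources used here.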
